A study of Mus musculus with 18 samples.

Results

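The 100 most abundant processed pseudogenes of mouse colon tumor libraries were compared between a serine-free high fat diet (SF_HFD, 5 libraries) and a serine-free control diet (SF_CD, 5 libraries). They were chosen by their counts: among the 9923 rows that the deposited table types as processed pseudogenes, of 54354 rows in all, the 100 with the largest sum over the 10 serine-free libraries were taken. Of the 9923 rows, 3061 had at least 1 count. The 100 held 334679 counts, which were 86.4% of the counts of all processed pseudogene rows and 0.471% of all counts. The GENCODE M21 annotation of the mm10 build held 99 of them and typed 98 as processed pseudogenes, with Srsf3-ps typed as protein coding.

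The series has 18 libraries in 4 diet groups, and only the serine-free groups were read here. The labels give every library as colon, tumor and wild type, and name the 2 groups Serine-free HFD and Serine-free CD, so a diet without serine was common to both. The extraction protocol names organoids, while the design text of the series describes sorted live cells, and the sources used here give neither the age of the mice nor which libraries share an animal. P-values therefore measure the spread between libraries, which may be technical.

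Totals were 727610 to 12146933 counts in SF_HFD and 499774 to 12841275 counts in SF_CD, with 3 libraries under 1000000 (SF_HFD library 5 and SF_CD libraries 1 and 5). Ribosomal RNA rows took 2.97 to 7.19% of counts in SF_HFD and 2.08 to 22.0% in SF_CD, where SF_CD libraries 1 and 5 had 22.0% and 14.5%. Epithelial markers (Epcam, Krt8, Krt18, Krt19 and Cdh1, all above 0 in every library) summed to 4022 to 6289 CPM (counts scaled to a library of 1000000) in SF_HFD and 1842 to 4596 CPM under SF_CD. Smooth muscle markers (4 genes) summed to 159 to 253 CPM under SF_HFD and 2.94 to 22.5 CPM under SF_CD, and the goblet cell markers Muc2 and Zg16 to 0 to 0.181 CPM under SF_HFD and 11.1 to 44.8 CPM under SF_CD. The part of these differences in the pseudogene values below was not tested, and in bulk libraries fewer cells of a type and less RNA per cell cannot be told apart.

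A processed pseudogene is a copy of a messenger RNA that was reverse transcribed by the enzymes of a retrotransposon and inserted elsewhere in the genome. Such a copy lacks introns, is made mostly from genes that are strongly transcribed in the germ line, such as those for ribosomal proteins, and often ends in a run of A left by the poly(A) tail. Most have no promoter of their own and gather mutations, while a young copy can remain almost identical to its parent gene, so that a short read from either matches both.

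The sequences shown here, from the GENCODE M21 transcripts of mm10, show how close abundant copies are to their parents. The first is the start of Ndufb4c, its bases 1 to 300 of 390, on the minus strand at chr15:73809507-73809896, inside the gene body of Mroh5 on the same strand but in none of its exons; capitals mark its ATG. The next are Gm42845 (minus strand, chr5:87737106-87737210) and Gm12338 (minus strand, chr11:75599763-75599954), each shown because it matches a coding sequence without a difference.
Ndufb4c: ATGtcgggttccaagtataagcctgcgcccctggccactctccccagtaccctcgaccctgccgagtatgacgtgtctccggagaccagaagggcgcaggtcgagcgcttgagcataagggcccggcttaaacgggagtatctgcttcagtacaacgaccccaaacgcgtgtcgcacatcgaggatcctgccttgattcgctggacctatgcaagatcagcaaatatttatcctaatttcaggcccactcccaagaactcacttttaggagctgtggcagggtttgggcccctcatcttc
Gm42845: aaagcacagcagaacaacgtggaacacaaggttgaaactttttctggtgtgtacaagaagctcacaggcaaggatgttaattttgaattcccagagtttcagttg
Gm12338: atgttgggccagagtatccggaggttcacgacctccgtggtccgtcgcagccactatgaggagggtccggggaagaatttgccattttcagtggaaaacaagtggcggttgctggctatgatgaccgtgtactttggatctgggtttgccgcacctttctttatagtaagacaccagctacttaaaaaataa

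Over its 390 bases Ndufb4c was identical to the whole coding sequence of Ndufb4, an accessory subunit of respiratory complex I. Gm42845 was identical to coding bases 478 to 582 of Rps7, a protein of the small ribosomal subunit. Gm12338 was identical to the whole coding sequence of Cox7c, a subunit of cytochrome c oxidase. No read taken from these spans can separate copy from parent by its letters.

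Gm4739, at chr10:26107789-26108421 on the plus strand, is the most abundant of the 100 and is a copy of Hmgb2, a chromatin protein of the HMG-box family, at chr8:57511907-57515999 on the plus strand. Bases 541 to 621 of both coding sequences are shown because they hold the only differences between them, in capitals. The differences are C555T and C606A, with the base of Hmgb2 first and positions counted from the A of the ATG.
Gm4739: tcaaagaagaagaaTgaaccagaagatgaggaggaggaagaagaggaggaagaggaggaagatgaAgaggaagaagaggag
Hmgb2: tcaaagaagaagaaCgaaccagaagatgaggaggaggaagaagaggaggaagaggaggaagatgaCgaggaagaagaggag

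A last set shows the 3′ ends, 30 bases each, of Rpl36-ps12 (minus strand, chr6:108140120-108140509), Gm4540 (plus strand, chr3:106034664-106035092) and Mrpl23-ps1 (minus strand, chr2:74591330-74591909). They carry the A-rich tail of a retrocopy, and capitals mark the final run of A.
Rpl36-ps12: taaaagatggttcctacAAAAAAAAAAAAA
Gm4540: aaataaaagaaaaaaaaaaagaaaatacAA
Mrpl23-ps1: AAAAAAAAAAAAAAAAAAAAAAAAAAAAAA

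The run had 13 A in Rpl36-ps12 and 42 A in Mrpl23-ps1, while the last 30 bases of Gm4540 held 25 A. An end with at least 9 A in its last 10 bases was present in 3 of the 99 annotated members (3.03%), in 9 of 2956 other processed pseudogenes with a count (0.304%) and in 7 of 6812 with none (0.103%). The 3 members were Rpl36-ps12, Mrpl23-ps1 and Srsf3-ps, while Gm4540 did not meet this rule. The annotated copies mostly covered the coding part of their parents: 95.2% of the aligned bases lay in the coding sequence of the parent transcript, 3.80% in its 3′ untranslated region and 0.992% in its 5′ untranslated region.

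A parent gene was assigned by sequence, as the protein-coding gene sharing most 31-base words with the pseudogene and at least 15% of them, for pseudogenes whose words occurred in no more than 500 genes. This gave a clear parent for 94 of the 100, from 55 genes. The other 6 were Gm48789, Gm18283, Gm49858, Gm21939, Gm48368 and Gm53040. Ribosomal protein genes were the parents of 56 members, from 30 genes. Where the symbol itself names a parent (28 members) the words gave the same gene in 27. The median member was 549 bases long (105 to 2191), and its identity to the parent had a median of 99.1% (94.4 to 100%), with 12 members identical over the aligned span.

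The members had fewer words of their own than other processed pseudogenes. The share of 31-base words found in no other annotated gene had a median of 16.2% in the members, against 59.9% in 2956 other processed pseudogenes with a count and 94.7% in 6810 with none. Of the 99, 15 had no word of their own (15.2%), against 49 (1.66%) and 235 (3.45%) in the other sets. The members were chosen by their counts, so these values describe which copies received counts, and no test was made. Members without a word of their own held 29.2% of the members' counts, those with some but under 10% held 42.1%, and the 59 with 10% or more held 27.8%.

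The counts were concentrated in few copies. Gm4739 alone held 29.2% of the members' counts, the first 12 held 76.2% and the last 50 held 4.46%. Copies of ribosomal protein genes held 38.7%, copies of other genes 57.3% and those without a clear parent 3.94%. Counts were present in every library for 35 members, while 65 were at 0 in at least 1 library. The choice ended between Gm14414, Gm13680 and Rpl17-ps4 (238, 237 and 223 counts) inside it and Rpl13-ps6, Gm5805 and Gm2546 (221, 217 and 217 counts) outside it.

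Gm4739 had 1368, 1339, 1270, 1012 and 152.8 CPM in the SF_HFD libraries, against 1111, 2329, 1618, 1161 and 2280 CPM in the SF_CD libraries. The SF_HFD range overlapped that of SF_CD, and the lowest value was in SF_HFD library 5. Its log2 fold change was -0.72 ± 0.45 (SE; adjusted p = 0.561, edgeR quasi-likelihood test with Benjamini-Hochberg adjustment over all genes tested). Hmgb2 itself had 625 ± 209 CPM under SF_HFD and 723 ± 271 CPM under SF_CD (SD, n = 5 each), with a log2 fold change of -0.21.

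**Figure D1:**
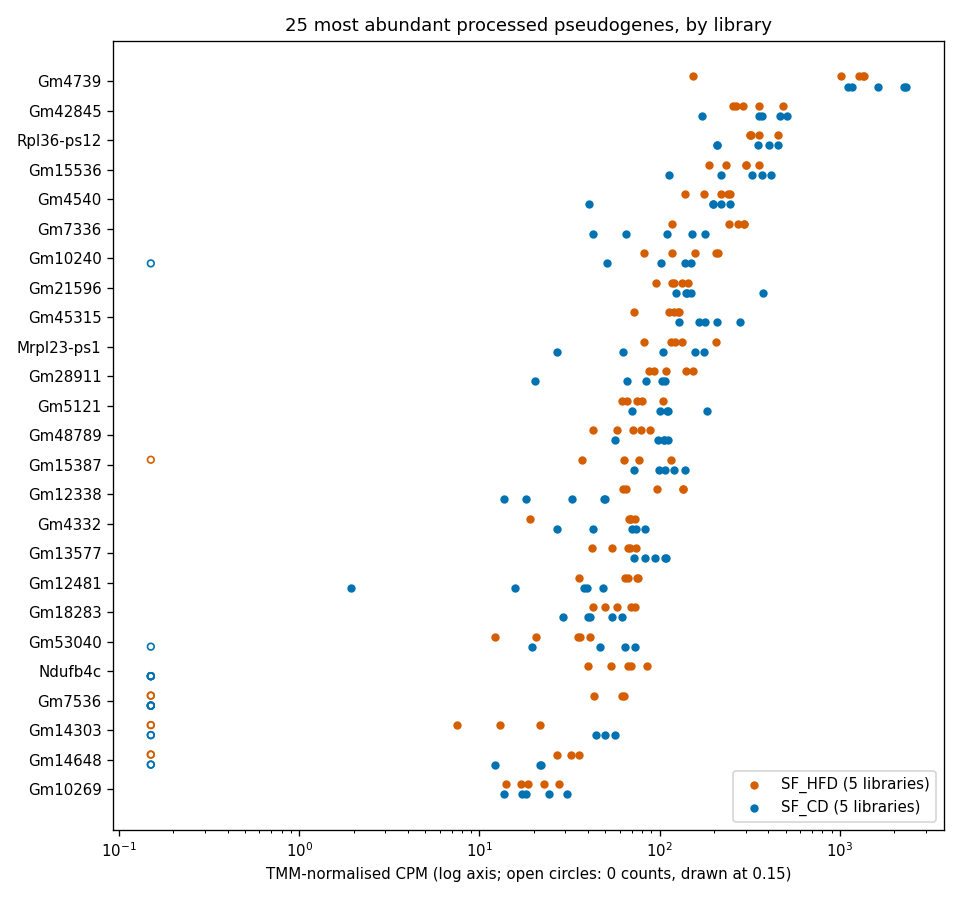
TMM-normalised CPM (log axis) of the 25 most abundant processed pseudogenes; orange points are the 5 SF_HFD libraries, blue points the 5 SF_CD libraries, and open circles libraries at 0. Gm4739 lies above the others in most libraries. Ndufb4c and Gm7536 have open circles in all of SF_CD. Ndufb4c has points in every SF_HFD library, while Gm7536 has open circles in SF_HFD libraries 2 and 5.

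Next in abundance came Gm42845, Rpl36-ps12 and Gm15536. Gm42845 had 330 ± 93 CPM under SF_HFD and 375 ± 131 CPM under SF_CD (SD, n = 5 each), Rpl36-ps12 354 ± 60 CPM under SF_HFD and 325 ± 113 CPM under SF_CD, and Gm15536 275 ± 65 CPM under SF_HFD and 289 ± 122 CPM under SF_CD. Their log2 fold changes were -0.19, 0.12 and -0.08, each smaller than its standard error of 0.34, 0.31 and 0.36. Both signs of Rpl36-ps12 and Gm15536 were seen among the alternative settings. Rpl36, the parent of Rpl36-ps12, encodes a protein of the large ribosomal subunit.

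Gm4540, a copy of Rbis, a factor of ribosome biogenesis, averaged 204 ± 45 CPM under SF_HFD and 180 ± 80 CPM under SF_CD (SD, n = 5 each). Mrpl23-ps1, a copy of the mitochondrial ribosomal protein gene Mrpl23, averaged 132 ± 45 CPM under SF_HFD and 105 ± 62 CPM under SF_CD. Neither passed the test, with log2 fold changes of 0.17 and 0.29 that changed sign without the 3 shallow libraries.

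Both Gm4540 and Mrpl23-ps1 had more counts than their parent genes. Of the 94 pairs, the count of the pseudogene exceeded that of the parent in 3: Gm4739 (97833 counts, Hmgb2 47672), Gm4540 (15600 counts, Rbis 9803) and Mrpl23-ps1 (8645 counts, Mrpl23 1137). The median pseudogene had 0.00386 of its parent's counts, and 80 of the 94 had under 10% of them. Per kilobase of transcript the level was above that of the parent in 8 pairs. It was 2155 CPM per kb for Gm4739 and 257 for Hmgb2, 204 for Mrpl23-ps1 and 21.7 for Mrpl23, and 448 for Gm4540 and 283 for Rbis. The parent length was that of the whole transcript sharing most words, untranslated regions included, 2628 bases for Hmgb2 against 633 for Gm4739. A longer parent transcript lowers the parent's level per kb, and how far the 8 pairs depend on this choice was not tested. Over its 105 bases Gm42845 had 3356 CPM per kb, and Rps7 had 2013.

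Among the first 12, Gm7336, a copy of the glycolytic enzyme gene Gapdh, had 292.9, 116.4, 270.7, 294.9 and 243.8 CPM under SF_HFD, against 65.4, 151.5, 178.7, 109.7 and 42.8 CPM under SF_CD. All but SF_HFD library 2 lay above every SF_CD library, and the log2 fold change of 1.13 ± 0.40 did not pass the test (adjusted p = 0.299, edgeR). Gapdh had a log2 fold change of 0.56. Gm45315, a copy of the chromatin protein gene Hmgb1, had 71.95 to 127 CPM under SF_HFD and 129 to 278 CPM under SF_CD, with no overlap (log2 fold change -0.78, edgeR adjusted p = 0.355). A second Hmgb1 copy, Gm21596, averaged 122 ± 18 CPM under SF_HFD and 186 ± 107 CPM under SF_CD (SD, n = 5 each).

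Gm10240, a copy of the ribosomal protein gene Rpl21, was also among the first 12. It averaged 155 ± 56 CPM under SF_HFD and 87.7 ± 62 CPM under SF_CD (SD, n = 5 each). Gm28911, a copy of the ribosomal protein gene Rpl8, averaged 116 CPM under SF_HFD and 76.1 CPM under SF_CD, and Gm5121 77.2 CPM under SF_HFD and 115 CPM under SF_CD. The log2 fold changes of Gm10240, Gm28911 and Gm5121 were 0.80, 0.59 and -0.56, and none passed the test.

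The high fat diet was then set against the control diet, both without serine. Of the 100 members, 97 passed the filter on low counts and 3 (Gm7536, Rpl21-ps15 and Gm5616) did not. Ndufb4c rose and no member fell at an adjusted p under 0.05 (edgeR), among 11780 genes tested of which 38 passed (0.323%), 18 of them higher (0.153%) and 20 lower (0.17%) in SF_HFD. Before adjustment 17 of the 97 had p under 0.05, against 11.6% of all genes tested. For 10 of the 97 there was no overlap between SF_HFD and SF_CD, against 3.65% of all genes tested. Of the 97, 40 had a positive and 57 a negative log2 fold change, with a median of -0.13 against 0.02 over all genes tested.

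None of the 55 parent genes passed the test, and 2 had p under 0.05 before adjustment (Cir1 and Cox7c). Their log2 fold changes had a median of -0.01, with 27 positive and 28 negative. DESeq2 called 7 members (2.53% of all genes) and 1 parent, Cir1, while limma-voom called 3 members (1.43% of all genes) and no parent. Members past the threshold numbered 2 without the 3 shallow libraries (0.205% of all genes then tested) and 2 without a filter (0.32%), Ndufb4c and Gm8186 both times. Of the 84 protein-coding ribosomal protein genes 80 were tested and none passed, with 1 at an unadjusted p under 0.05 and none called by DESeq2 or limma-voom.

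Ndufb4c had 85.3, 40.1, 69.5, 53.5 and 67.0 CPM in the 5 SF_HFD libraries, from 942, 174, 751, 709 and 53 counts. It had 0 counts in each of the 5 SF_CD libraries, so it was chosen and passed the filter through its SF_HFD counts alone. A copy at 0 in SF_CD and low in SF_HFD could not have been chosen. As CPM, the 2629 SF_HFD counts of Ndufb4c were at least 661-fold higher than a floor of 3 counts over the SF_CD group. Ndufb4c passed the test (adjusted p = 3.56e-05, edgeR), and did so under all 18 alternatives that refitted the model. All of these used the same deposited counts, so they cannot test how reads were divided between copy and parent.

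Its parent Ndufb4 had 513, 251.9, 464, 333 and 387 CPM under SF_HFD, against 162, 585, 618, 592 and 436 CPM under SF_CD. The groups overlapped, with a log2 fold change of -0.30 ± 0.36 (adjusted p = 0.805, edgeR). Ndufb4c took 13.0 to 14.8% of the counts of the pair in SF_HFD, 13.9 ± 0.65% on average (SD, n = 5), and 0% in SF_CD. Summed, copy and parent had 453 ± 120 CPM under SF_HFD and 479 ± 191 CPM under SF_CD (SD, n = 5 each), a difference of -26.1 CPM (p = 0.810, exact two-sided permutation test, smallest possible p 0.00794). That difference had the other sign, 11.8 CPM, when CPM were taken from raw library totals. With the copy added to its parent before the fit, the log2 fold change was -0.09 ± 0.36 (adjusted p = 0.955, edgeR). Words of Ndufb4c occurred in 4 other annotated genes, of which only Ndufb4 entered the pair and the sums.

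Of the 12 protein-coding Ndufb genes in the table, which encode complex I subunits, 11 were tested and none passed. Mroh5, in whose body Ndufb4c lies, had 21 counts over SF_HFD and 23 counts over SF_CD. The smooth muscle markers were higher in the same 5 libraries as Ndufb4c, and their part in its values was not tested.

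**Figure D2:**
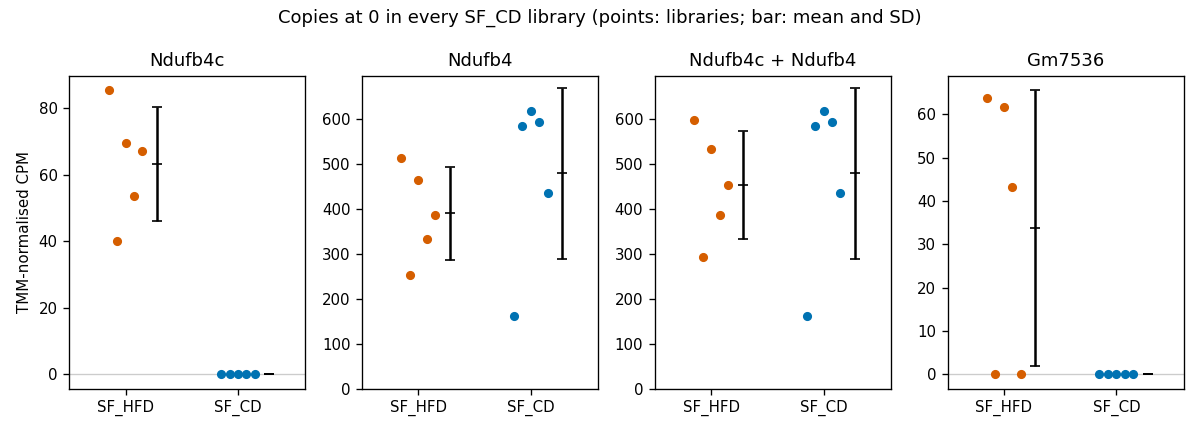
TMM-normalised CPM of Ndufb4c, its parent Ndufb4, their sum and Gm7536 in the 5 SF_HFD libraries (orange) and the 5 SF_CD libraries (blue), with the mean and SD as black bars. Ndufb4c lies between 40.1 and 85.3 CPM under SF_HFD and at 0 in SF_CD, while the sum of copy and parent overlaps between the groups.

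A second member was at 0 throughout SF_CD. Gm7536, chosen for description after its values were seen, had 63.6, 0, 61.6, 43.2 and 0 CPM under SF_HFD (703, 0, 666, 573 and 0 counts) and no count in SF_CD. Like Ndufb4c, it was chosen through its SF_HFD counts alone. It is identical over 444 of the 447 coding bases of Rpl27a, a protein of the large ribosomal subunit. Its SF_HFD counts were at least 488-fold higher than the floor of 3 counts over the SF_CD group, but libraries 2 and 5 of SF_HFD were at 0 as well. It was removed by the filter, and without a filter it did not pass (adjusted p = 0.290, edgeR). Rpl27a averaged 1340 ± 241 CPM under SF_HFD and 1319 ± 680 CPM under SF_CD (SD, n = 5 each).

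Gaps of this kind were not limited to these members. In the 7 libraries above 1000000 counts, 14 members had 0 counts in at least 1 library and at least 50 counts in another. Of the 14, 13 were among the 40 members with under 10% words of their own, and 1, Gm10095, among the 59 with more. Rpl21-ps15, a copy of Rpl21, had 162 counts in SF_HFD library 2 and 147 counts in SF_CD library 2, and 0 in every other library. Gm14303, identical to the coding sequence of Rps29, had 239, 0, 140, 99 and 0 counts in SF_HFD, against 0, 510, 356, 581 and 0 counts in SF_CD. These 3 were named after their values were seen.

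The share of a pair's counts given to the pseudogene was also set side by side. In 11 of the 94 pairs the share did not overlap between the groups, but the same share was not computed for copies outside the 100, so this count has no background and nothing is read from it. The pairs below were singled out by their values, with no test. Gm42845 took 13.7 to 14.98% of the Rps7 pair in SF_HFD and 15.6 to 20.1% in SF_CD. Gm42845 had no word of its own, and its level differed by less than its error.

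Gm4540 took 65.6 ± 0.47% of the Rbis pair in SF_HFD and 53.7 ± 10.8% in SF_CD (SD, n = 5 each), with SF_CD library 1 lowest at 35.3%. Gm12481, a copy of Serf2, took 4.32 ± 0.34% in SF_HFD and 2.03 ± 0.999% in SF_CD. Of the 11 pseudogenes, 4 had 10% or more words of their own and 7 had fewer, against 59 and 40 of the 99 annotated members.

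**Figure D3:**
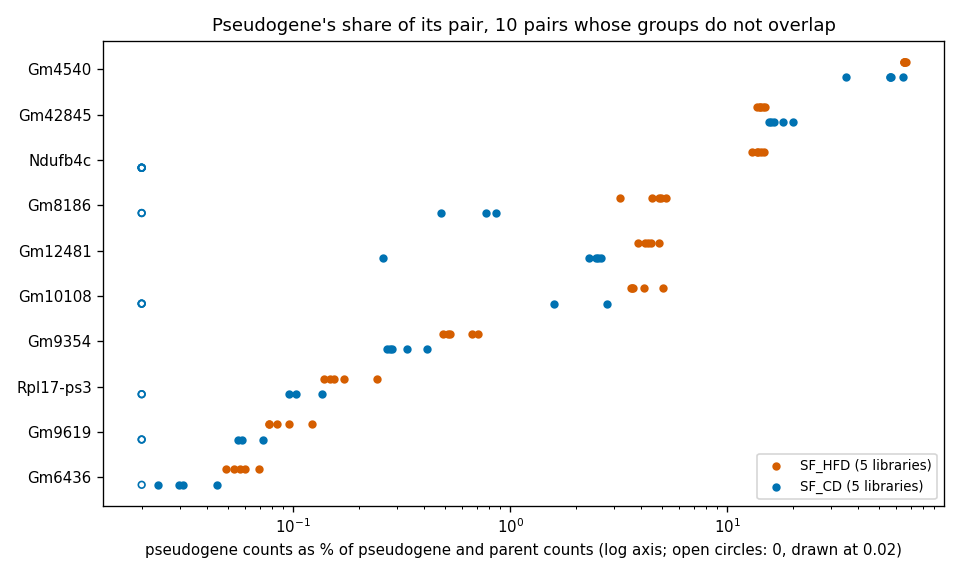
Counts of the pseudogene as a percentage of the counts of pseudogene and parent together (log axis) for 10 of the 11 pairs whose groups do not overlap; orange points are SF_HFD libraries, blue points SF_CD libraries, and open circles libraries at 0. Ndufb4c lies at 13.0 to 14.8% in SF_HFD and at 0 throughout SF_CD, and Gm42845 at 13.7 to 14.98% in SF_HFD and 15.6 to 20.1% in SF_CD; the pairs were chosen for this lack of overlap.

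Among members that did not pass the test, the largest positive log2 fold changes were those of Gm4294, Gm8186, Gm10108 and Hmgb1-ps6. Gm8186 is identical to the coding sequence of Snrpg, a core protein of the spliceosomal ribonucleoproteins. It had 20.6, 21.9, 17.6, 19.2 and 8.84 CPM under SF_HFD, against 0, 5.51, 2.80, 4.17 and 0 CPM under SF_CD. Every SF_HFD library lay above every SF_CD library, with a log2 fold change of 2.40 ± 0.53 (adjusted p = 0.0721, edgeR).

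Without the 3 shallow libraries Gm8186 passed the test, at a log2 fold change of 2.24 (adjusted p = 0.0308, edgeR), and DESeq2 and limma-voom called it with all libraries. Its parent Snrpg averaged 362 ± 56 CPM under SF_HFD and 461 ± 209 CPM under SF_CD (SD, n = 5 each). The copy took 3.20 to 5.22% of the pair in SF_HFD and 0 to 0.858% in SF_CD, and the sum of both had a log2 fold change of -0.29 (adjusted p = 0.810, edgeR).

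Gm4294, a copy of the ribosomal protein gene Rpl15, had 28.2, 0, 14.99, 0 and 78.3 CPM under SF_HFD, against 0, 2.53, 0, 2.20 and 0 CPM under SF_CD. Its groups overlapped at 0, and its log2 fold change of 3.97 ± 1.47 did not pass (adjusted p = 0.312, edgeR). Gm10108, a copy of the cytochrome c gene Cycs, had 20.97 to 35.4 CPM under SF_HFD and 0 to 18.4 CPM under SF_CD, with no overlap and a log2 fold change of 1.75 ± 0.88. Hmgb1-ps6 averaged 12.3 CPM under SF_HFD and 4.498 CPM under SF_CD, with a log2 fold change of 1.58 ± 0.47 (adjusted p = 0.196, edgeR), and DESeq2 and limma-voom called it. Rpl15, Cycs and Hmgb1 had log2 fold changes of 0.06, 0.18 and -0.22.

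Gm12338, the Cox7c copy, was added after its values were seen, since its parent had a change of the same sign. It had 135, 62.9, 97.0, 65.3 and 135 CPM under SF_HFD, against 18.0, 49.8, 32.6, 49.3 and 13.6 CPM under SF_CD. The groups did not overlap, with a log2 fold change of 1.53 ± 0.41 (adjusted p = 0.147, edgeR). Cox7c averaged 550 ± 123 CPM under SF_HFD and 322 ± 122 CPM under SF_CD (SD, n = 5 each), with a log2 fold change of 0.77 (adjusted p = 0.399, edgeR).

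The largest negative log2 fold changes short of the threshold were those of Gm8451, Gm49858, Nsa2-ps1 and Gm2810, and in each SF_CD library 1 or 5 was the highest. Gm8451, a copy of Rpl27a, had 3.71, 0.691, 3.89, 4.38 and 0 CPM under SF_HFD, against 85.7, 5.18, 7.99, 5.01 and 70.1 CPM under SF_CD. The groups did not overlap, but SF_CD libraries 1 and 5 stood far above the other 3. Its log2 fold change was -3.40 ± 0.88 (adjusted p = 0.136, edgeR), and -0.89 without the 3 shallow libraries.

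Gm2810, a copy of Cir1, a transcriptional corepressor, had 8.60, 16.8, 14.8, 12.3 and 10.1 CPM under SF_HFD, against 94.7, 18.8, 24.2, 23.8 and 115 CPM under SF_CD. The groups did not overlap, and SF_CD libraries 1 and 5 were again the highest. Its log2 fold change was -2.06 ± 0.53 (adjusted p = 0.132, edgeR), and -0.77 without the shallow libraries. Cir1 had 30.8 ± 5.19 CPM under SF_HFD and 73.5 ± 36.2 CPM under SF_CD (SD, n = 5 each), with a log2 fold change of -1.22 (adjusted p = 0.210, edgeR).

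Gm49858, which has no clear parent, had 3.98, 5.76, 5.64, 0 and 0 CPM under SF_HFD, against 83.4, 14.4, 35.3, 10.6 and 33.1 CPM under SF_CD. The groups did not overlap, and the log2 fold change was -3.30 (adjusted p = 0.144, edgeR) with all libraries and -2.41 without the shallow ones. Nsa2-ps1, a copy of a ribosome biogenesis gene, had 2.53 to 7.06 CPM under SF_HFD and 112.7, 2.42, 0.841, 3.19 and 19.5 CPM under SF_CD. Its groups overlapped, and the fitted log2 fold change of -2.37 turned to 1.14 once the shallow libraries were dropped.

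SF_CD libraries 1 and 5 were both above the other 8 libraries for 9 members (9.28% of those tested), against 12.6% of all genes tested. The 9 were Gm45315, Gm13577, Gm2810, Tcea1-ps1, Gm6808, Gm8451, Gm38574, Nsa2-ps1 and Rpl27a-ps4, named for this pattern. Both were below the other 8 libraries for 25 of the 97 tested members, against 20.6% of all genes tested. Counted separately, both were at 0 for 25 members. They are 2 of the 3 libraries under 1000000 counts, where 3 counts are worth up to 6.76 CPM. Malat1, a nuclear non-coding RNA, took 12.1% of all counts in SF_CD library 1 and 1.66% in SF_CD library 5, and at most 1.18% in any SF_HFD library. Ribosomal RNA rows took 22.0% and 14.5% in these libraries and at most 7.19% in any SF_HFD library. The part of depth or RNA quality in these values was not tested.

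**Figure D4:**
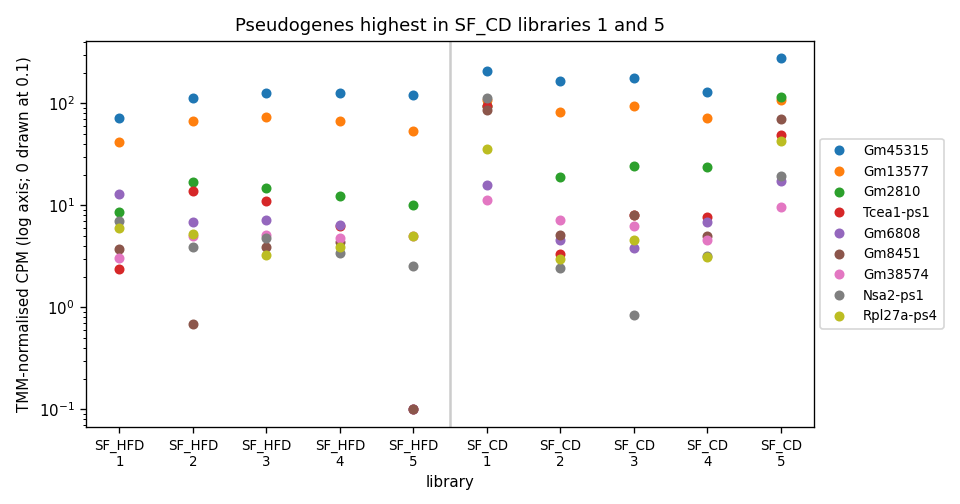
TMM-normalised CPM (log axis, 0 drawn at 0.1) of the 9 processed pseudogenes that were highest in SF_CD libraries 1 and 5, in the 5 SF_HFD libraries on the left and the 5 SF_CD libraries on the right. Gm8451 stands at 85.7 and 70.1 CPM in these libraries and at no more than 7.99 CPM in the others.

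Several parents had more than 1 copy among the members, and the copies did not share 1 direction in every family. The 12 copies of Rpl17, a protein of the large ribosomal subunit, had log2 fold changes of -0.82 to 0.25 with a median of -0.40, 10 of them negative. The 7 copies of Hmgb1 had a median of -0.60, with 6 negative and Hmgb1-ps6 positive. The 5 tested copies of Rpl21 had a median of 0.45 and the 4 of Gapdh a median of 0.81. The 3 copies of Ftl1, the ferritin light chain, were all positive, from 0.56 to 1.34. The parents Rpl17, Hmgb1, Rpl21, Gapdh and Ftl1 themselves had log2 fold changes of -0.25, -0.22, 0.11, 0.56 and 0.56. None of these copies passed the test, and copies of 1 gene share reads with it and with each other.

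Setting each tested pseudogene beside its parent, 76 of 91 pairs had log2 fold changes within 1 of each other and 60 had the same sign. The median distance between them was 0.76 in 13 pairs whose copy had no word of its own. It was 0.50 in 22 with some but under 10% and 0.35 in 56 with 10% or more. The distance exceeded 1 in 4 of the 13, 6 of the 22 and 5 of the 56. The pairs share libraries, and parents with several copies enter several times, so these are descriptions. When every member was added to its parent before the fit, none of the sums passed the test, against 0.317% of all genes in that table, and their log2 fold changes ran from -1.54 to 0.87.

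**Figure D5:**
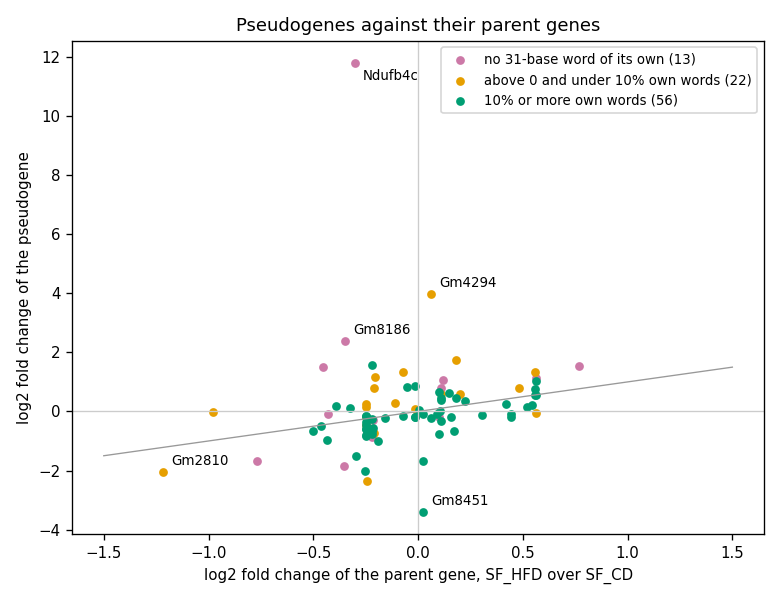
Log2 fold change, SF_HFD over SF_CD, of 91 processed pseudogenes (vertical axis) against that of their parent genes (horizontal axis), coloured by the share of 31-base words found in no other gene; the grey line marks equal values. Parents lie between -1.22 and 0.77, while Ndufb4c lies at 11.80, a fitted value against a group at 0 that is no bound.

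As a whole the members took 0.444 ± 0.065% of the counts in SF_HFD libraries and 0.458 ± 0.090% in SF_CD libraries (SD, n = 5 each). All processed pseudogene rows took 0.515 ± 0.075% in SF_HFD and 0.537 ± 0.085% in SF_CD (p = 0.643, exact two-sided permutation test over libraries). The lowest member shares were 0.332% in SF_HFD library 5 and 0.315% in SF_CD library 1, both shallow libraries. SF_CD library 5, also shallow, had 0.508%, and the ranges of the groups overlapped.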

How the data were processed

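RNA was sequenced from poly(A)-selected, strand-specific libraries, per the labels' protocols. The authors deposited estimated counts as whole numbers, 1 row per gene, made with Salmon 1.3.0 on mm10 (submitters' processing notes); how transcripts were summed to genes, and on which annotation release, is not given in the sources used here. Where a read matches several transcripts Salmon splits it by a statistical estimate, which leaves the counts of near-identical copies uncertain. The columns of the CD and HFD groups were not used here, since their rows were reported to be misnamed.

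The members and lists were chosen with earlier results of these data known. SF_HFD was compared with SF_CD by edgeR's quasi-likelihood test (edgeR 4.0.16, R 4.3.3; TMM, filterByExpr, Benjamini-Hochberg, threshold 0.05) over all genes; CPM are TMM-normalised. Alternatives were RLE and upper quartile scaling, no filter, at least 1 CPM in 5 libraries, DESeq2 1.42.0, limma-voom with quality weights (limma 3.58.1), a replicate block, leaving out each library and leaving out the 3 under 1000000 counts. On simulated counts for 11780 genes, 51% of 4-fold and 2% of 2-fold changes were recovered, and 2 unchanged genes were called. The changed genes were drawn only from those above a minimum expected count, so the recovery does not cover the rarest members. Standard errors were derived from the fold change and the F statistic.

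Row identifiers occurred in GENCODE M21 (mm10) in 94.7% of rows. Words of 31 bases were compared on the same strand between all M21 transcripts; a copy whose words occurred in over 500 genes was given no parent. Copies were aligned locally to the parent transcript with Biopython 1.88 (match score 1, mismatch penalty 2, gap opening penalty 5). Permutation tests used SciPy 1.17.1. A floor is 3 counts, which is 6.76 CPM in the shallowest library and 0.226 CPM in the deepest, and covers counting error only. Named were Ndufb4c, the first 12 members, those past the threshold, the 4 largest changes each way short of it, the 3 on each side of the limit of the 100, and their parents; some values of these are not reported here, and others named are said to be chosen after their values were seen.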

Additional observations from a re-analysis of the deposited data

Results flagged for a closer look

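In groups of 5 libraries a single value can lie far from the other 4. Chance gives such a gap in about 1 of 20 groups when values are normally distributed with equal spread. Libraries of unlike depth need not meet this, and some pseudogenes were named for their large fold change, so the count below is not set against that rate. Among 48 groups of named pseudogenes, 7 had 1, judged by Dixon's gap over range above 0.71.

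In SF_HFD, Gm7336, a Gapdh copy, had 116.4 CPM in library 2 and 243.8 to 294.9 CPM in the others. Gm45315, an Hmgb1 copy, had 71.95 CPM in SF_HFD library 1 and 112 to 127 CPM in the other SF_HFD libraries. Rpl17-ps4 was at 0 in SF_HFD library 5, against 2.53 to 3.05 CPM in the others. In SF_HFD library 5 a single count is 1.26 CPM, so such levels are only a few counts there.

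In SF_CD, Gm4540, the Rbis copy, had 40.6 CPM in library 1 and 198.5 to 245 CPM in the others. Nsa2-ps1 had 112.7 CPM in SF_CD library 1 and 0.841 to 19.5 CPM in the others. Gm21596, an Hmgb1 copy, had 375.8 CPM in SF_CD library 5 and 123.4 to 150 CPM in the others. Gm14414 had 7.79 CPM in SF_CD library 5 and 2.25 to 3.42 CPM in the others. In SF_CD library 5 a single count is 1.95 CPM, so this value too rests on few counts. Of the 7 values, 5 were from the 3 libraries under 1000000 counts.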

How the results depend on the processing

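The count of all genes past the threshold, 38, became 78 without a filter, 298 with DESeq2 and 168 with limma-voom, and 16 to 88 when 1 library was left out. Members past it, 1, became 2 without a filter, 7 with DESeq2, 3 with limma-voom, 2 without the shallow libraries and 1 to 3 when 1 library was left out (3 without SF_CD replicate 2); Ndufb4c was among them each time. Parents and sums of copy and parent, 0 each, became 1 each with DESeq2 and stayed at 0 when 1 library was left out. The difference between SF_HFD and SF_CD in the members' share of counts, -0.0144 percentage points, ran from -0.0501 to 0.0135 when 1 library was left out, and that of all processed pseudogene rows, -0.0225, from -0.0555 to 0.00930 (0.00930 without SF_HFD replicate 5). The difference of the Ndufb4c and Ndufb4 sum, -26.1 CPM, was 11.8 CPM with raw totals and ran from -105 to 14.1 CPM when 1 library was left out (0.560, 8.70 and 2.32 without SF_CD replicates 2, 3 and 4, and 14.1 without SF_HFD replicate 2). The causes were not tested.

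Some log2 fold changes reversed. With limma-voom they were -0.12 for Rpl36-ps12, -0.22 for Mrpl23-ps1, 1.06 for Nsa2-ps1 and 0.13 for Tcea1-ps1. Without the shallow libraries they were -0.15 for Rpl36-ps12, -0.0026 for Gm4540, -0.37 for Mrpl23-ps1, 1.14 for Nsa2-ps1, 0.080 for Gm14414, -0.25 for Gm13680, 0.38 for Tcea1-ps1 and 0.37 for Rpl27a-ps4. With 1 library left out they ran from -0.012 to 0.27 for Rpl36-ps12, -0.28 to 0.079 for Gm15536, -0.071 to 0.31 for Gm4540, -2.75 to 0.0086 for Nsa2-ps1 and -0.17 to 0.33 for Gm13680.

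With the replicate block 22 genes passed, 1 of them a member, and Gm15536 had 0.019. Libraries with the same number had correlations of -0.21 to 0.14 over genes and only library 3 of SF_HFD and SF_CD matched best by number, so the numbers give no pairing. Of the 100 members, 65 were at 0 in at least 1 library and 14 were at 0 in a library above 1000000 counts with at least 50 counts in another; the part of depth was not tested.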
